A study of Mus musculus with 6 samples.

Results

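The 10 genes whose transcripts were scarce in LSK cells of bcat(ex3)osb mice are the subject here, out of 23420 genes counted in the series: Fxyd6, Steap4, Retnlg, Col19a1, Cacna2d1, Prlr, Gli3, Ptpn14, Postn and Alpl. They were chosen from the counts themselves, for low or zero counts in the bcat(ex3)osb libraries beside the WT libraries, so the difference between genotypes is given for them as a description and carries no test. LSK cells, marked by Sca-1 and c-Kit and lacking lineage markers, are the bone marrow fraction with blood stem cells and multipotent progenitors. The groups were 3 bcat(ex3)osb mice, whose osteoblasts carried constitutively active β-catenin signalling, and 3 WT littermates, with 1 total RNA library per mouse. The promoter that confines the allele to osteoblasts and the ages of the mice are not stated in the labels.

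The 10 genes belong to different cellular systems. FXYD proteins are small single-pass membrane proteins that tune the sodium-potassium pump, α2δ proteins carry voltage-gated calcium channels to the cell surface, and STEAP proteins are membrane reductases for iron and copper. Prlr is a class I cytokine receptor that signals through Jak2 and Stat5, Gli3 is a zinc finger factor at the end of the hedgehog pathway, and Ptpn14 is a phosphatase that restrains YAP. Retnlg is a resistin-like protein secreted by neutrophils. Col19a1, Postn and Alpl act outside the cell or at its surface: collagen XIX lies in basement membrane zones, periostin is a matrix protein of periosteum and fibroblasts, and tissue-nonspecific alkaline phosphatase releases phosphate for bone mineral.

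The libraries held between 17191996 and 18678599 counts in bcat(ex3)osb mice, against 15431235 to 19956774 in WT mice. Fewer genes were detected in bcat(ex3)osb mice: 14044, 13423 and 14282 genes had a count in mice 1, 2 and 3, against 15102, 14530 and 14927 in WT mice 1, 2 and 3. Reduced by calculation to the depth of the shallowest library, the numbers were 13977, 13389 and 14231 in bcat(ex3)osb mice, against 14954, 14530 and 14772 in WT mice, so the groups did not overlap at equal depth either. The part of this difference in the results below was not tested. bcat(ex3)osb mouse 2 stood apart from the other libraries along the axis of greatest variance (50.8% of it). Judged from Xist and Y-linked genes, bcat(ex3)osb mice 1 and 2 were male, and bcat(ex3)osb mouse 3 and the 3 WT mice were female. Markers of stem and progenitor cells were present in every library, with a summed level over 15 genes of 3773 to 4693 CPM (counts scaled to a common library size) in bcat(ex3)osb mice, against 3681 to 5705 CPM in WT mice. Most of that sum was Cd34, Flt3 and Kit. Ly6a, which encodes Sca-1, a marker of the sort, was lower in each bcat(ex3)osb mouse, with 1514, 1022 and 1365 counts, against 3055, 2485 and 3209 in WT mice, a log2 fold change of -1.06 ± 0.18 (SE) with an edgeR adjusted p of 0.312 (unadjusted 0.000311). Procr, the endothelial protein C receptor of stem cells, averaged 24.7 ± 3.90 CPM for bcat(ex3)osb and 38.1 ± 8.13 CPM for WT (SD, n = 3 each), with an edgeR adjusted p of 0.710. The part of these differences, and of the sexes, in the results below was not tested.

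All 10 genes passed the low count filter, which kept 12653 genes, although the WT libraries alone carried most of them past it. For 4 genes (Col19a1, Cacna2d1, Prlr and Gli3) no read was counted in any bcat(ex3)osb library, and for 4 more (Fxyd6, Steap4, Retnlg and Ptpn14) the 3 libraries held between 1 and 3 counts in all. These 8 genes together had 1, 1 and 5 counts in bcat(ex3)osb mice 1, 2 and 3, against 284, 318 and 367 counts in WT mice 1, 2 and 3. Postn and Alpl were lower in bcat(ex3)osb mice but still detected in each of them, so "nearly absent" describes 8 of the 10. The 3 bcat(ex3)osb values lay below the 3 WT values for all 10, a pattern seen in 7.67% of the genes tested and one that the choice of the genes used.

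The 10 genes were modestly expressed in WT LSK cells. On the length-corrected FPKM scale (counts per kilobase of gene and per library total), the level in WT mice ran from 0.060 ± 0.010 FPKM for Prlr to 6.10 ± 3.40 FPKM for Alpl (SD, n = 3). Among the 16041 genes detected in a WT library, that placed Prlr above 11.3% and Alpl above 48.1% of genes. Their counted lengths ran from 608 bases (Retnlg) to 13415 bases (Prlr), against a median of 2810 bases over the tested genes.

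The genes lie on 8 chromosomes of the mouse build GRCm38, which mm10 also names. Coordinates below are from RefSeq. Fxyd6 is on chromosome 9 (45369470 to 45396159), Cacna2d1 and Steap4 are on chromosome 5 (15934264 to 16374511 and 7960472 to 7982213), Prlr is on chromosome 15 (10177238 to 10349190) and Gli3 is on chromosome 13 (15463723 to 15730026). Ptpn14 and Col19a1 are on chromosome 1 (189728216 to 189876695 and 24257683 to 24587922), Retnlg on chromosome 16 (48872608 to 48874498), Postn on chromosome 3 (54359267 to 54391041) and Alpl on chromosome 4 (137741731 to 137796384). Non-coding genes overlap Col19a1, Cacna2d1, Prlr, Gli3, Ptpn14 and Postn in RefSeq, and since the strand setting of the counting is not given, reads of such partners cannot be told apart from those of the 6 genes.

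No motif searched for occurred in more than 3 of the 10 promoters. Promoters here are RefSeq windows on GRCm38.p6 from 250 bases before to 50 bases after the first listed start, found for all 10 genes, and they were searched on both strands. The reference held 14 promoters for the 10 genes, and the results are for 1 per gene. The windows of Fxyd6, Col19a1 and Cacna2d1 lie wholly inside the gene coordinates given above, so sequence at the outer ends of these genes was not read. The TCF/LEF cores CTTTGA and CTTTGT, bound by the partners of β-catenin, occurred in 1 of 10 promoters each, Col19a1 for CTTTGA and Alpl for CTTTGT, against 16.2% and 18.7% of all 27025 promoters. These cores share their first 5 letters, so a site holds one or the other. The Runx core TGTGGT was in the Gli3 promoter (16.9% of all promoters) and the ETS core GAGGAA in those of Cacna2d1, Prlr and Ptpn14 (28.3%). The Gli core CCACCCA was in that of Cacna2d1 (9.32%). The TATA motif TATAAA was matched in that of Steap4 (14.2%), as its reverse complement and near the upstream end of the window. The promoters of 5 genes are printed 5′ to 3′ on the gene's strand, with matches to any of these motifs or their reverse complements in capitals: the pair with a TCF/LEF core, and those of the 3 genes with the most WT counts among the 8 with at most 3 counts in bcat(ex3)osb mice, of which Steap4 holds a match and Fxyd6 and Retnlg hold none.
Col19a1 (chr1:24587388-24587687, minus strand): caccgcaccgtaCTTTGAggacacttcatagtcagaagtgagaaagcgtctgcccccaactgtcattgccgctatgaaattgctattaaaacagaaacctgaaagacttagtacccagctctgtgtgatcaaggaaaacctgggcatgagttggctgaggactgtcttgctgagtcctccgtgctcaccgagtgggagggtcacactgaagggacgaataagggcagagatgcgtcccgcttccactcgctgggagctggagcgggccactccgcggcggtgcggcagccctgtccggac
Alpl (chr4:137796335-137796634, minus strand): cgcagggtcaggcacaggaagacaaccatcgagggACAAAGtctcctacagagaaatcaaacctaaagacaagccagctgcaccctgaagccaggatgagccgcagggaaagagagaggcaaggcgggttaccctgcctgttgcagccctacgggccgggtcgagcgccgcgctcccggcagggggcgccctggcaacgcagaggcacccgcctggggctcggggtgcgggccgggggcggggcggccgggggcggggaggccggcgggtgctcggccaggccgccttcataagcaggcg
Fxyd6 (chr9:45369935-45370234, plus strand): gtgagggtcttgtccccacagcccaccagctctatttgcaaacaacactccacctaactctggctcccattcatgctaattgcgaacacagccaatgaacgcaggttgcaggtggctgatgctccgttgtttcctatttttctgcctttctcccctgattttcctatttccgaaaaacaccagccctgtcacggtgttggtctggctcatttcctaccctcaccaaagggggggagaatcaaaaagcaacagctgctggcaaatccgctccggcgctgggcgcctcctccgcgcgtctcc
Steap4 (chr5:7960222-7960521, plus strand): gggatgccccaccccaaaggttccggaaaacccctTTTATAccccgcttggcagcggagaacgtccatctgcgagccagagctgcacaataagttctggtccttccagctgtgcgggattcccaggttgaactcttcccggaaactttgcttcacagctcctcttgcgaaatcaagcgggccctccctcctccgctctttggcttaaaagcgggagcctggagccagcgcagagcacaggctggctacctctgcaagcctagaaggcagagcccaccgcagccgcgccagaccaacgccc
Retnlg (chr16:48872358-48872657, plus strand): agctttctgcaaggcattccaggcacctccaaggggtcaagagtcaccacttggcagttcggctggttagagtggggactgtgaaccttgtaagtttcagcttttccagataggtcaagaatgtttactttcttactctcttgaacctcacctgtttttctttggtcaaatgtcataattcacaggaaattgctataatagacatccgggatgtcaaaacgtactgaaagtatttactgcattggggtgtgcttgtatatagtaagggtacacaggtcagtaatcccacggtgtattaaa

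Of the 8 genes, the membrane protein gene Fxyd6 had the most reads in WT mice. It had 0, 0 and 2 counts in bcat(ex3)osb mice 1, 2 and 3, against 42, 152 and 162 counts in WT mice 1, 2 and 3. WT mouse 1 was the lowest WT library by a wide margin, and still stood 18.4-fold above the highest bcat(ex3)osb library in CPM. The ratio of bcat(ex3)osb to WT counts, corrected for library size, was 0.00610, with a 95% counting interval of 0.000736 to 0.0222. Steap4 had 0, 0 and 1 counts in bcat(ex3)osb mice, against 28, 52 and 69 in WT mice, a ratio of 0.00728 (0.000183 to 0.0412). As with Fxyd6, what was counted in bcat(ex3)osb mice came from mouse 3 and WT mouse 1 was the lowest WT library. Cacna2d1, the α2δ-1 subunit, had no count in bcat(ex3)osb mice, against 13, 15 and 29 counts in WT mice. Set against a floor of 3 counts per library, it was at least 5.79-fold lower in bcat(ex3)osb mice. At the mean WT level, 18.7, 15.6 and 18.1 counts of Cacna2d1 would have been counted in bcat(ex3)osb mice 1, 2 and 3. These intervals and floors hold counting error alone, as PCR copies were not told apart by molecular identifiers.

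The receptor and signalling genes Prlr and Gli3 were the most even among WT mice. Prlr had no count in bcat(ex3)osb mice, against 14, 15 and 17 counts in WT mice, and was at least 4.76-fold lower in bcat(ex3)osb mice by the same floor. Gli3 had no count in bcat(ex3)osb mice, against 15, 14 and 17 counts in WT mice, at least 4.73-fold lower. The highest WT library exceeded the lowest by 1.44-fold for Prlr and by 1.25-fold for Gli3, while the other 8 genes differed between WT mice by 2.11-fold to 4.85-fold. Ptpn14 had 1, 0 and 0 counts in bcat(ex3)osb mice, against 34, 12 and 20 in WT mice, a ratio of 0.0164 (95% counting interval 0.000410 to 0.0949). Its single count was in mouse 1, unlike those of Fxyd6 and Steap4.

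Retnlg, the secreted neutrophil product, had 0, 1 and 2 counts in bcat(ex3)osb mice, against 103, 41 and 39 in WT mice. The ratio was 0.0178 (95% counting interval 0.00364 to 0.0528). WT mouse 1 was the highest WT library here and the lowest for Fxyd6 and Steap4, so the WT mice did not keep one order across the genes. In a bulk library, fewer cells of a type and less RNA per cell cannot be told apart, which applies to each gene described here.

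Among the matrix and bone genes, Col19a1 had no count in bcat(ex3)osb mice, against 35, 17 and 14 counts in WT mice, at least 6.68-fold lower in bcat(ex3)osb mice. Postn had 69, 44 and 40 counts in bcat(ex3)osb mice, against 634, 182 and 289 in WT mice. The means were 2.92 ± 0.75 CPM for bcat(ex3)osb and 18.9 ± 10.3 CPM for WT (SD, n = 3 each), and the log2 fold change was -2.69 ± 0.46 (SE). The bcat(ex3)osb mice were alike, WT mouse 1 stood above the other WT mice, and the lowest WT library was 3.19-fold above the highest bcat(ex3)osb library. Alpl had 89, 6 and 34 counts in bcat(ex3)osb mice, against 345, 91 and 449 in WT mice. Its means were 2.36 ± 2.24 CPM for bcat(ex3)osb and 14.8 ± 8.13 CPM for WT (SD, n = 3 each), and the log2 fold change was -2.64 ± 0.83 (SE). Alpl was the least separated of the 10: WT mouse 2 lay only 1.23-fold above bcat(ex3)osb mouse 1, and bcat(ex3)osb mouse 2 was far below the other bcat(ex3)osb mice.

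**Figure D1:**
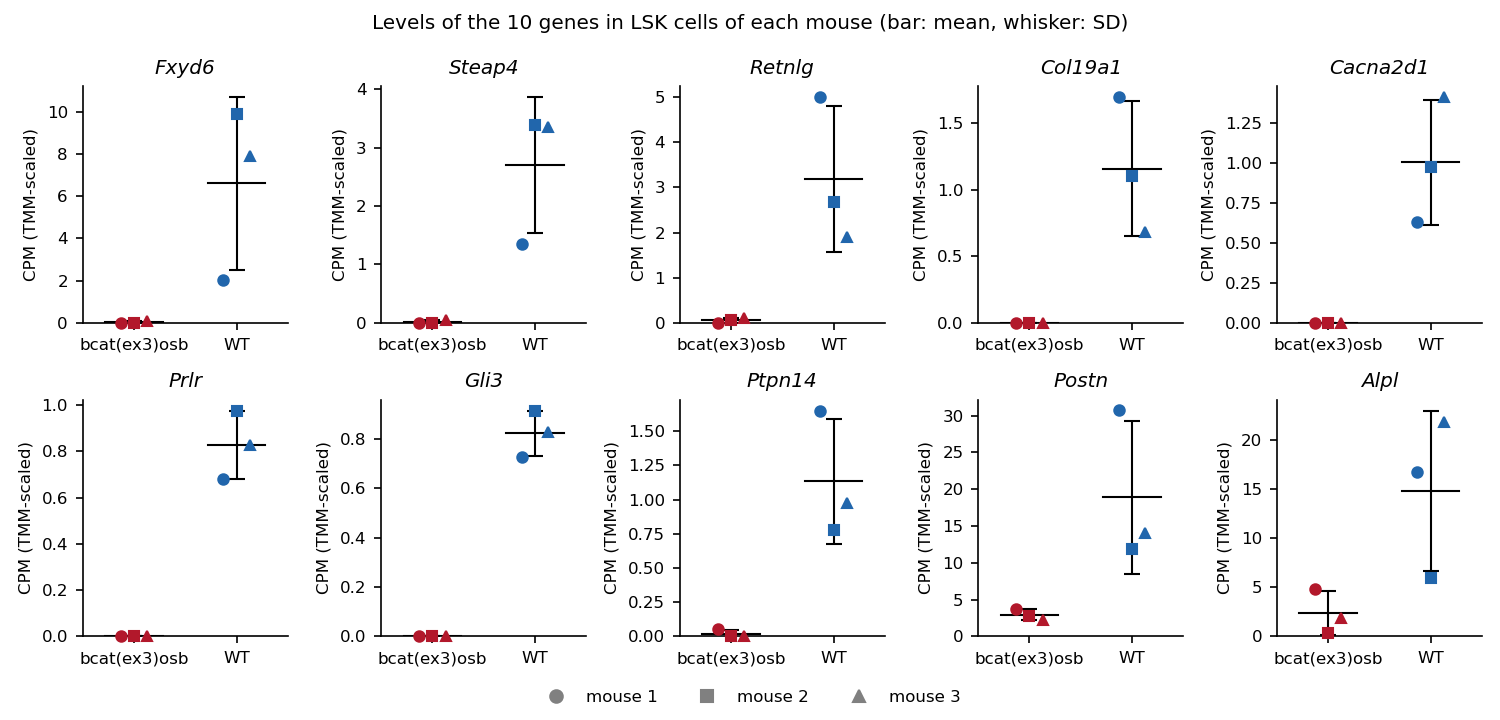
Level of each of the 10 genes in CPM (linear axis, starting at 0) in the 3 bcat(ex3)osb and the 3 WT mice; each symbol is 1 mouse, the bar is the mean and the whisker the SD. The bcat(ex3)osb values sit at or near 0 for 8 genes, while Postn and Alpl averaged 2.92 and 2.36 CPM there, below the WT mice.

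Over the 10 genes, with the 4 genes without counts set at the floor of 3 counts per library, the median ratio of the mean bcat(ex3)osb level to the mean WT level was 0.152. For those 4 genes the floor is a bound, and with a floor of 1 count per library the median was 0.0538. Without bcat(ex3)osb mouse 2, whose library stood apart, it was 0.149.

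To see how common the pattern was, genes were counted as near absent in bcat(ex3)osb mice when every WT library had at least 10 counts and the bcat(ex3)osb mean was at most 0.10 of the WT mean. The rule took 28 of 12094 genes, or 0.232%, and 8 of the 28 were among the 10 genes; Postn (ratio 0.155) and Alpl (0.159) fell outside. Turned round, 12 of 11565 genes (0.104%) were near absent in WT mice. No count in any bcat(ex3)osb library was found for 8 of the 12094 genes (0.0661%), against 0 of 11565 genes with no count in any WT library. Among the 1951 genes in the WT range of the 8 near-absent genes, from 0.822 to 6.60 CPM, 1.18% met the rule, and the median ratio of bcat(ex3)osb to WT mean was 0.894. The 8 genes set this range and are themselves counted in the 1.18%. The count of 28 was 85 without bcat(ex3)osb mouse 1, 72 without bcat(ex3)osb mouse 3, 63 without WT mouse 2 and 43 without WT mouse 3, and each of these counts included 8 or 9 of the 10 genes. The count of 12 was 30, 23 and 20 without bcat(ex3)osb mouse 1, bcat(ex3)osb mouse 3 and WT mouse 2. Without bcat(ex3)osb mouse 2 it was 16, of which 4 were among the 12.

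**Figure D2:**
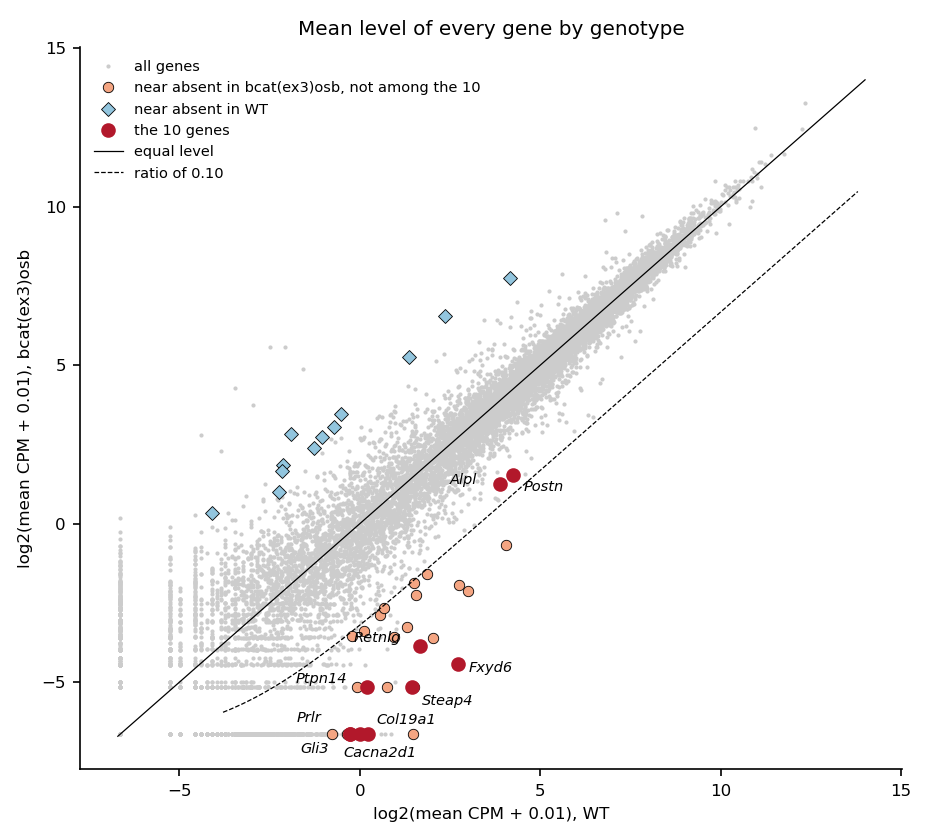
Mean level of every gene on a log2 scale, log2(mean CPM + 0.01), with WT mice on the horizontal and bcat(ex3)osb mice on the vertical axis; each point is 1 gene, the solid line marks equal levels and the dashed line a ratio of 0.10. Of the 10 genes, 8 lie below the dashed line with 20 other near-absent genes, Postn and Alpl lie just above it, and 12 genes are near absent in WT mice.

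Of the 28 near-absent genes, those with a RefSeq position lay on 18 chromosomes. From the cell type and pathway lists described next, the 28 included Cd5l (macrophage) and Retnlg (late neutrophil). Ranked by the ratio of means over the 6 libraries, and leaving out unnamed and sex-linked genes, the 10 closest were Cd5l, Slc12a3, Igsf3, Rasgef1a, Col27a1, Nudt17, Alox15, Gria2, Tnfrsf19 and Pdgfc. Cd5l, a secreted macrophage protein, had no count in bcat(ex3)osb mice, against 68, 41 and 49 counts in WT mice, at least 16.0-fold lower. Slc12a3, a sodium-chloride cotransporter, had no count in bcat(ex3)osb mice, against 10, 13 and 30 counts in WT mice. Igsf3 and Rasgef1a also had no count in bcat(ex3)osb mice, against 42 and 32 counts over the WT mice. Col27a1, another collagen, had 1, 0 and 0 counts in bcat(ex3)osb mice, against 11, 55 and 19 in WT mice. Alox15, a lipoxygenase, had 7, 0 and 5 counts in bcat(ex3)osb mice, against 343, 45 and 89 in WT mice. Gria2, an AMPA-type glutamate receptor subunit, differed among the bcat(ex3)osb mice with 1, 2 and 30 counts, against 452, 199 and 312 in WT mice. Pdgfc, a platelet-derived growth factor, had 1, 0 and 3 counts in bcat(ex3)osb mice, against 63, 18 and 32 in WT mice. Of the 28 genes, 21 had no count in bcat(ex3)osb mouse 2, 15 had none in mouse 1 and 13 had none in mouse 3. Among the genes near absent in WT mice, the smallest ratios of WT to bcat(ex3)osb means, unnamed genes left out, belonged to Rhou, Mt1, Mefv, Cdh17 and Fos. Mefv, the pyrin gene of myeloid cells, had 105, 43 and 45 counts in bcat(ex3)osb mice, against 6, 2 and 5 in WT mice.

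Because several of the 10 genes are known from stromal, bone, neutrophil or other cells, the libraries were read for the defining markers of those cells, leaving the 10 genes out of each list. The lists were tested gene by gene within the fit over all genes, where edgeR's quasi-likelihood test called 0 of 12653 genes lower (0.0%) and 0 higher (0.0%) at an adjusted p under 0.05. At an unadjusted p under 0.05 it had 396 lower (3.13%) and 434 higher (3.43%). At an adjusted p under 0.05 DESeq2 called 68 lower (0.537%) and 101 higher (0.798%), while limma-voom called 0 and 0. Without bcat(ex3)osb mouse 1 the edgeR calls were 13 lower and 1 higher, and without bcat(ex3)osb mouse 3 they were 2 lower and 4 higher. Of 100 tested marker genes in 14 lists, 67 had a negative log2 fold change, against 49.7% of all tested genes, and the median was -0.39, against 0.00 over all tested genes. All 3 bcat(ex3)osb values were under all 3 WT values for 16 of the 100 (16.0%, against 7.67% of all genes tested). They were over them for 4, against 6.89% of all genes tested. Of the 16, the B cell list held 5 and the macrophage list 5, so the pooled numbers lean on these lists. At an unadjusted p under 0.05, 9 of the 100 were lower and 7 higher.

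Osteoblast markers other than Alpl differed among themselves between the genotypes. Their summed level over 14 genes was 102 to 154 CPM in bcat(ex3)osb mice, against 89.6 to 118 CPM in WT mice, and the groups overlapped. Most of that sum was Runx2, which is also transcribed in blood progenitors and had 2096, 2284 and 1594 counts in bcat(ex3)osb mice, against 1543, 1667 and 1741 in WT mice. Of the 14 genes, 6 had no count in any bcat(ex3)osb library and 1 had none in any WT library. That 1, Col11a1, had no count in any library and is also among the 6. Others of the 6 were near the floor in WT mice 1, 2 and 3: Bglap2 had 0, 0 and 1 counts, Phex 0, 0 and 2, and Dmp1 3, 0 and 3. Fewer genes were detected in bcat(ex3)osb mice over the whole series too. Col1a2, a chain of type I collagen, had 37, 2 and 19 counts in bcat(ex3)osb mice, against 53, 31 and 49 in WT mice, and was the tested marker whose groups did not overlap (log2 fold change -1.12 ± 0.83, SE, edgeR adjusted p = 0.877). Spp1, osteopontin, had 48, 97 and 149 counts in bcat(ex3)osb mice, against 113, 76 and 101 in WT mice. Sparc, osteonectin, had 44, 0 and 27 counts in bcat(ex3)osb mice, against 46, 27 and 29 in WT mice. These overlapped between the genotypes. Bglap, osteocalcin, had 0, 5 and 1 counts in bcat(ex3)osb mice, against 1, 4 and 0 in WT mice. Col1a1, the main collagen of bone, had 6, 0 and 1 counts in bcat(ex3)osb mice, against 17, 3 and 12 in WT mice. Ibsp, bone sialoprotein, had no count in bcat(ex3)osb mice, and its 23 WT counts all came from mouse 1. Sp7, the osteoblast transcription factor, had no count in bcat(ex3)osb mice, against 2, 0 and 12 counts in WT mice. The median log2 fold change over 5 tested markers was -0.07, with 3 negative.

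Markers of periosteum and fibroblasts, the usual source of Postn, summed to 3.33 to 4.84 CPM in bcat(ex3)osb mice, against 4.57 to 9.69 CPM in WT mice, less than the 11.8 CPM or more that Postn alone reached in each WT mouse. The fibrillar collagen Col3a1 had no count in bcat(ex3)osb mice, and its 6 WT counts were in mouse 1. Col6a3 had none there either, and its 84 WT counts, 5.46 CPM of the sum, were in mouse 2. Fn1, fibronectin, had 14, 0 and 2 counts in bcat(ex3)osb mice, against 101, 10 and 21 in WT mice, a log2 fold change of -2.87 ± 1.28 (SE) with an edgeR adjusted p of 0.774. Ogn went the other way, with 12, 14 and 17 counts in bcat(ex3)osb mice, against 8, 5 and 12 in WT mice. It was the tested marker whose groups did not overlap (log2 fold change 0.92 ± 0.66, SE, edgeR adjusted p = 0.876). Aspn had 6, 9 and 10 counts in bcat(ex3)osb mice, against 0, 10 and 3 in WT mice. The median over 4 tested markers was 0.09, with 1 negative. Stromal reticular markers summed to 132 to 208 CPM in bcat(ex3)osb mice, against 82.4 to 204 CPM in WT mice. The largest single share was Pdgfrb, a growth factor receptor of perivascular cells, with 113 ± 31.9 CPM for bcat(ex3)osb and 60.6 ± 23.7 CPM for WT (SD, n = 3 each). Lepr, the leptin receptor of these cells, had no count in bcat(ex3)osb mice, against 8, 0 and 0 counts in WT mice. Cxcl12, the chemokine they secrete, had 131, 0 and 14 counts in bcat(ex3)osb mice, against 162, 1 and 22 in WT mice. In both genotypes most Cxcl12 counts came from mouse 1. Other markers with few reads went either way. Adipoq had 46, 0 and 0 counts in bcat(ex3)osb mice, against 10, 1 and 0 in WT mice. Pdgfra had 3, 0 and 0 counts in bcat(ex3)osb mice, against none in WT mice. Igfbp5 had 21, 0 and 0 counts in bcat(ex3)osb mice, against 20, 0 and 0 in WT mice. Dcn had no count in bcat(ex3)osb mice, against 4, 0 and 0 in WT mice. Vcam1, also in the macrophage list, was the tested stromal marker whose groups did not overlap. It had 65, 40 and 173 counts in bcat(ex3)osb mice, against 535, 190 and 244 in WT mice (log2 fold change -1.68 ± 0.57, SE, edgeR adjusted p = 0.612). The stromal median was -0.50, with 5 of 6 tested markers negative, and 0.10 without WT mouse 1. What part residual bone or stromal cells had in the level of Postn and Alpl was not tested.

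Late neutrophil markers, the company of Retnlg, were high in sum in bcat(ex3)osb mice 2 and 3 and in WT mouse 1. Their summed level over 12 genes was 51.0, 140 and 153 CPM in bcat(ex3)osb mice 1, 2 and 3, against 166, 31.9 and 19.3 CPM in WT mice 1, 2 and 3. Ngp, a granule protein, had 23, 177 and 176 counts in bcat(ex3)osb mice, against 1203, 97 and 73 in WT mice. S100a8, a calcium-binding alarmin, had 376, 874 and 1381 counts in bcat(ex3)osb mice, against 485, 174 and 102 in WT mice, a log2 fold change of 1.94 ± 0.63 (SE) with an edgeR adjusted p of 0.583. Cxcr2, a chemokine receptor of neutrophils, was higher in each bcat(ex3)osb mouse, with 249, 191 and 139 counts, against 99, 66 and 125 in WT mice (log2 fold change 1.14 ± 0.36, SE, edgeR adjusted p = 0.562). Lcn2, an iron-sequestering granule protein, had 60, 419 and 164 counts in bcat(ex3)osb mice, against 103, 11 and 4 in WT mice (log2 fold change 2.72 ± 1.14, SE, edgeR adjusted p = 0.745). Over 10 tested neutrophil markers the median was 0.59, with 4 negative, and it was 2.13 without WT mouse 1 and 0.09 without WT mouse 3. At an unadjusted p under 0.05, 3 of the 10 were higher, against 3.43% of all genes tested, and 0 lower, against 3.13%. The part of neutrophils in the level of Retnlg was not tested.

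Markers of B cells separated some bcat(ex3)osb mice from WT mice, and those of macrophages did so too. B cell markers summed to 640.8, 102 and 92.2 CPM in bcat(ex3)osb mice 1, 2 and 3, against 678, 1041 and 1163 CPM in WT mice, with a median log2 fold change of -1.96 and 12 of 13 markers negative. Without bcat(ex3)osb mouse 1 the median was -5.74. bcat(ex3)osb mouse 1 was close to WT mouse 1 in this sum. Macrophage markers summed to 85.8, 120 and 160 CPM in bcat(ex3)osb mice, against 206, 161 and 143 CPM in WT mice, with a median of -1.27 and 10 of 12 tested markers negative, also with Cd5l at its bound. Without bcat(ex3)osb mouse 3 that median was -2.16. bcat(ex3)osb mouse 3 lay within the WT range of this sum. C1qb, a complement chain of macrophages, had 9, 31 and 193 counts in bcat(ex3)osb mice, against 363, 361 and 248 in WT mice. Cd68, of the same list, went the other way and was higher in each bcat(ex3)osb mouse. It had 707, 1461 and 977 counts there, against 499, 421 and 567 in WT mice (log2 fold change 1.24 ± 0.33, SE, edgeR adjusted p = 0.488). The part of B cells and macrophages in the levels of the 10 genes was not tested.

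The remaining lists overlapped between genotypes in their summed level. The median log2 fold change was -0.05 for endothelial, -0.44 for T and NK cell, -0.23 for plasmacytoid dendritic cell, -0.18 for erythroid, 0.34 for megakaryocyte and -0.35 for stem and progenitor markers. Chondrocyte markers had 2 tested genes with a median of -0.70, and neural and glial markers 1 tested gene at -0.07. The neural and glial genes summed to at most 1.99 CPM in bcat(ex3)osb mice and 2.34 CPM in WT mice. Some single genes did not overlap. Spib and Ccr9, 2 of 7 tested plasmacytoid markers, had all bcat(ex3)osb values under all WT values, against 7.67% of all genes tested. Their log2 fold changes were -3.2 ± 1.13 and -2.33 ± 0.86 (SE, edgeR adjusted p = 0.65 and 0.672). The same held for endothelial Emcn (-1.16 ± 0.36, edgeR adjusted p = 0.562). The reverse held for megakaryocyte Itga2b (1.75 ± 0.38, edgeR adjusted p = 0.333), against 6.89%.

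**Figure D3:**
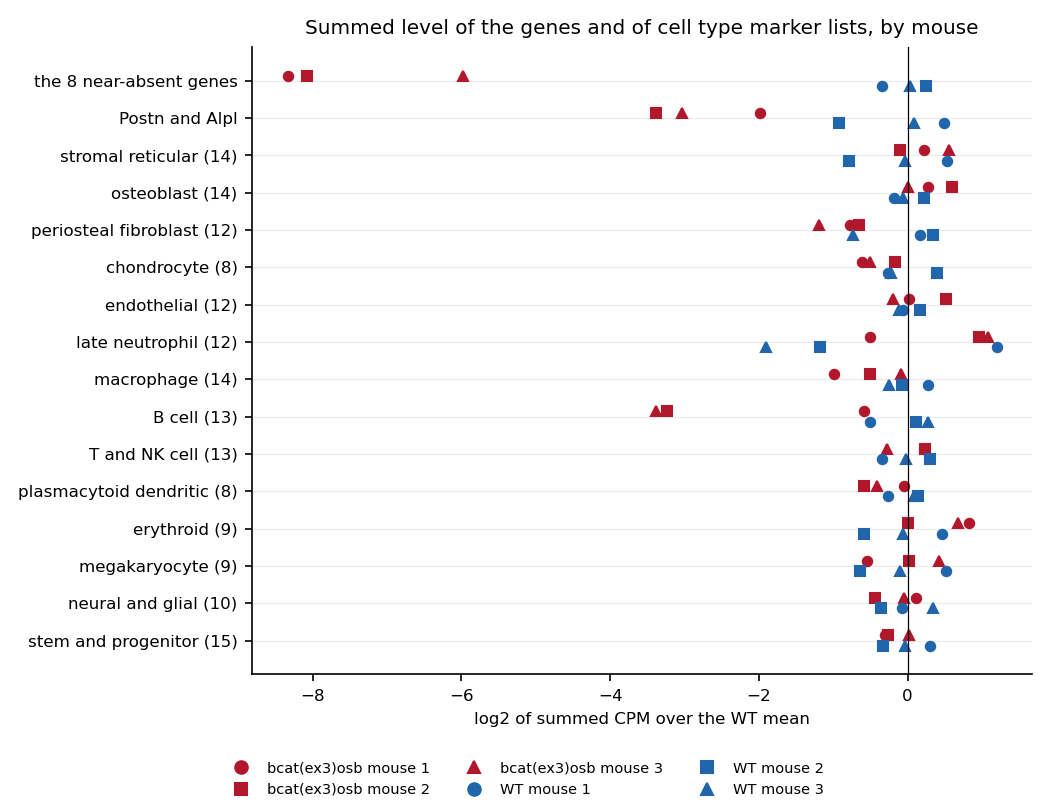
Summed CPM of the 8 near-absent genes, of Postn and Alpl, and of each cell type list (number of genes in brackets) in every mouse, as log2 over the mean of the WT mice; each symbol is 1 mouse, bcat(ex3)osb in red above WT in blue. The 8 genes are low in all 3 bcat(ex3)osb mice, B cell markers are low in bcat(ex3)osb mice 2 and 3 only (102 and 92.2 CPM, against 640.8 CPM in mouse 1), and most other lists overlap.

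Relatives and partners of the 10 genes were then read from lists of their families and pathways. Of 76 tested partner genes in 10 lists, 36 had a negative and 40 a positive log2 fold change, with a median of 0.01. All 3 bcat(ex3)osb values were under all 3 WT values for 3 of the 76, against 7.67% of all genes tested, and over them for 5, against 6.89%. None of the partners was near absent by the rule above. By edgeR, 0 passed at an adjusted p under 0.05. At an unadjusted p under 0.05, 0 of the 76 were lower, against 3.13% of all genes tested, and 7 higher, against 3.43%.

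Of the other FXYD genes, Fxyd1, Fxyd2, Fxyd5 and Fxyd7 were read in every library. Fxyd4 had no count in bcat(ex3)osb mice, against 8, 0 and 4 in WT mice, and Fxyd3 had 0, 0 and 2 counts in bcat(ex3)osb mice, against none in WT mice. Fxyd5, the most abundant member of the family on the length-corrected scale, averaged 371 ± 119 FPKM in bcat(ex3)osb mice and 300.4 ± 56.0 FPKM in WT mice (SD, n = 3 each). Fxyd1 averaged 3.23 ± 1.06 FPKM in bcat(ex3)osb mice and 3.74 ± 2.14 FPKM in WT mice, where Fxyd6 itself averaged 3.74 ± 2.26 FPKM. Fxyd2, which lies next to Fxyd6, averaged 1.21 ± 0.52 FPKM in bcat(ex3)osb mice and 1.15 ± 0.36 FPKM in WT mice. The list median was 0.07 over 8 genes. Among calcium channel genes, Cacna2d4, the α2δ relative with the most counts, was lower in each bcat(ex3)osb mouse. It averaged 3.99 ± 2.40 CPM for bcat(ex3)osb and 8.55 ± 0.47 CPM for WT, a log2 fold change of -1.10 ± 0.54 (edgeR adjusted p = 0.789). Cacna1f, a pore-forming subunit, was higher in each bcat(ex3)osb mouse with 35, 38 and 12 counts, against 5, 4 and 2 in WT mice (edgeR adjusted p = 0.488). The channel list had a median of 0.10, with 2 of 8 tested genes negative. Steap3, the endosomal reductase of developing red cells, was the other STEAP gene with reads and averaged 14.7 ± 7.09 CPM in bcat(ex3)osb mice and 16.8 ± 1.96 CPM in WT mice, while Steap1 and Steap2 had no count in any library. The STEAP and iron uptake list had a median of -0.16, with 5 of 7 tested genes negative.

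Partners of Prlr, Gli3 and Ptpn14 differed among themselves in whether they were read at all. Ghr, the related growth hormone receptor, had 45, 21 and 34 counts in bcat(ex3)osb mice, against 45, 14 and 27 in WT mice. Of the 11 tested genes of the prolactin receptor list, Socs3, a feedback inhibitor of cytokine signalling, had the smallest unadjusted p, with a log2 fold change of 1.02 ± 0.36 (SE) and an edgeR adjusted p of 0.654, and the list median was 0.06. In the hedgehog pathway, Gli1 had 0, 16 and 6 counts in bcat(ex3)osb mice, against 3, 0 and 7 in WT mice, and Gli2 had none in bcat(ex3)osb mice, against 9, 0 and 0 in WT mice. Gli3 was thus the only Gli gene with at least 10 counts in every WT library. The ligand genes Shh, Ihh and Dhh had 0 counts over the bcat(ex3)osb libraries, and 0, 4 and 6 counts over the WT libraries. Smo, the signal transducer, averaged 68.9 ± 26.6 CPM in bcat(ex3)osb mice and 68.8 ± 22.4 CPM in WT mice, and the hedgehog median was -0.24 over 8 tested genes. Ptpn21, the closest relative of Ptpn14 in the list, averaged 8.68 ± 1.84 CPM in bcat(ex3)osb mice and 11.2 ± 2.40 CPM in WT mice. The YAP gene Yap1 had no count in bcat(ex3)osb mice, against 3, 4 and 1 counts in WT mice, and the Hippo list median was -0.15, with 9 of 13 tested genes negative.

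The closest relatives of Retnlg and Alpl had few reads or none, while that of Postn was read in every library. Retn, resistin itself, had no count in bcat(ex3)osb mice, against 1, 0 and 3 in WT mice, and Retnla had none in any library. Retnlb went the other way, with 3, 6 and 0 counts in bcat(ex3)osb mice, against 0, 1 and 0 in WT mice. The 2 tested genes of the resistin list, Tlr4 and Cap1, had a median of -0.08. Among collagens related to Col19a1 or shared with basement membranes, 6 were tested, with a median of -0.07 and 4 negative. Tgfbi, the paralog of Postn, had 834, 453 and 1132 counts in bcat(ex3)osb mice, against 829, 410 and 812 in WT mice, and the periostin list had a median of 0.11. The other alkaline phosphatase genes Akp3, Alpi and Alppl2 had no count in any library. Ank, a pyrophosphate exporter that opposes mineral deposition, averaged 54.8 ± 17.1 CPM in bcat(ex3)osb mice and 33.0 ± 3.10 CPM in WT mice, a log2 fold change of 0.73 ± 0.26 (SE) with an edgeR adjusted p of 0.654. The mineralisation list had a median of 0.12, with 1 of 6 tested genes negative.

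**Figure D4:**
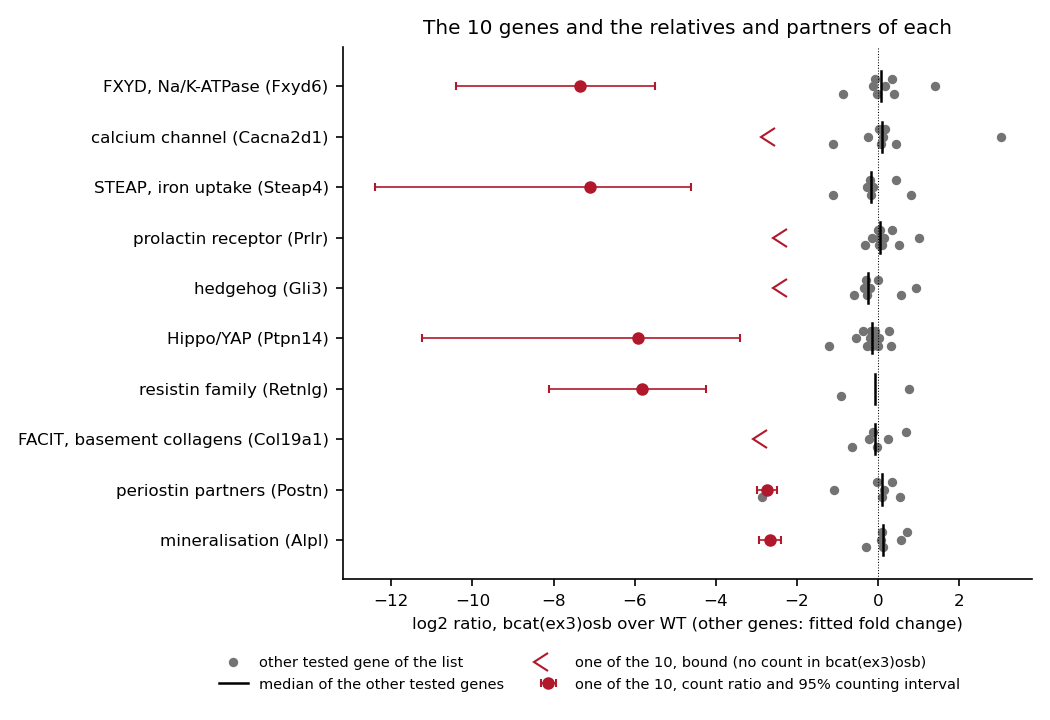
Log2 ratio of bcat(ex3)osb to WT for each of the 10 genes (red; count ratio with 95% counting interval, or an open arrow at the bound where no read was counted in bcat(ex3)osb mice) and fitted log2 fold change of the other tested genes of its list (grey), with their median as a bar. The list medians lie between -0.24 and 0.12.

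The chromosomal neighbours of the 10 genes did not share their pattern. The nearest tested gene on each side was taken, 20 genes in all, at distances of 3.55 to 3350 kilobases. Their log2 fold changes ran from -1.43 to 0.75 with a median of -0.01, 11 negative and 9 positive, and none met the rule for near absence. By edgeR, 0 passed at an adjusted p under 0.05. At an unadjusted p under 0.05, 1 of the 20 was lower, against 3.13% of all genes tested, and 1 higher, against 3.43%. Dzip3, 49.7 kilobases from Retnlg, had 525, 157 and 416 counts in bcat(ex3)osb mice, against 783, 638 and 761 in WT mice, a log2 fold change of -0.92 ± 0.36 (SE) with an edgeR adjusted p of 0.705. Il10ra, 100 kilobases from Fxyd6, averaged 90.4 ± 24.4 CPM in bcat(ex3)osb mice and 53.7 ± 18.1 CPM in WT mice, a log2 fold change of 0.75 ± 0.31 (SE) with an edgeR adjusted p of 0.743. Spef2, on the lower side of Prlr, had 56, 3 and 31 counts in bcat(ex3)osb mice, against 82, 61 and 112 in WT mice. Spef2 and Dzip3 were the 2 of 20 neighbours with all bcat(ex3)osb values under all WT values, against 7.67% of all genes tested. The reverse held for 0 neighbours, against 6.89% of all genes tested. Smyd2, 3.80 kilobases from Ptpn14, averaged 124 ± 21.7 CPM in bcat(ex3)osb mice and 114 ± 3.76 CPM in WT mice. The strain background of the mice is not stated in the labels, and its part in the pattern was not tested.

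**Figure D5:**
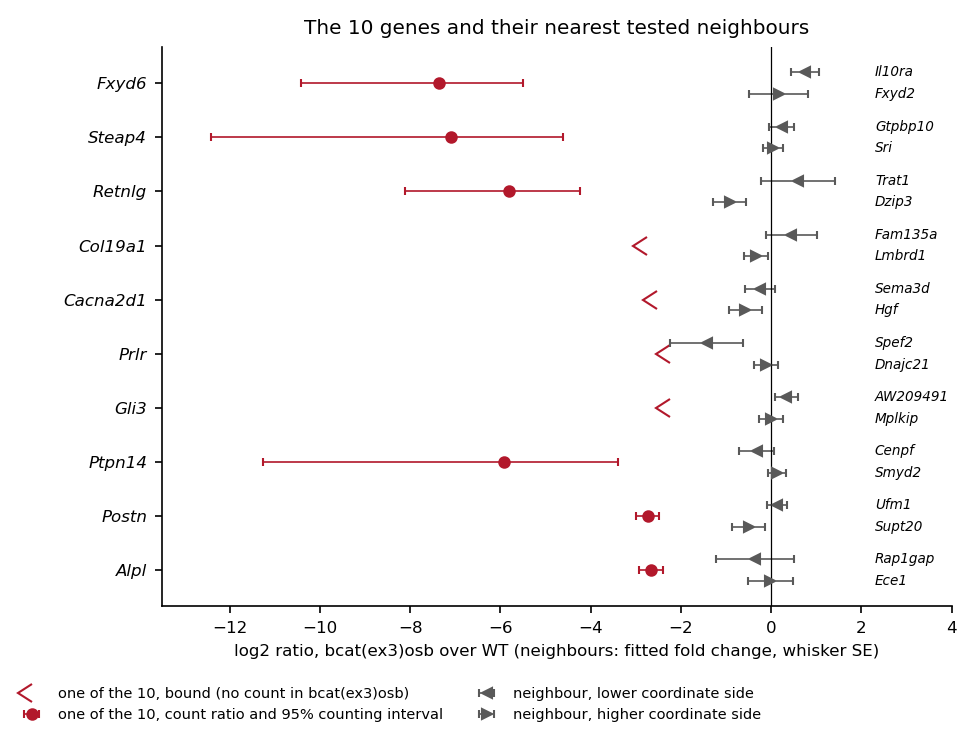
Log2 ratio of bcat(ex3)osb to WT for each of the 10 genes (red; count ratio with 95% counting interval, or an open arrow at the bound where no read was counted in bcat(ex3)osb mice) and fitted log2 fold change with SE of the nearest tested gene on either side (grey triangles). The neighbours lie between -1.43 and 0.75.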

How the data were processed

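Per the labels' protocols, AllPrep RNA went into TruSeq Stranded Total RNA libraries (Illumina), amplified with KAPA HiFi. The submitters' processing notes name mm10, featureCounts 1.5.0-p3, STAR 2.5.2b and bcl2fastq 2.17. How strand and multiply matching reads were treated, and with which annotation, is not given in the sources used. The authors deposited raw counts per gene, and a table per library with gene length, the same counts and FPKM, which equalled the count scaled by length and total within 0.005.

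The test on the counts was that of edgeR 4.0.16, run in R 4.3.3 (filterByExpr with minimum count 10 and total 15, TMM scaling, quasi-likelihood F test with genotype as the only term, two-sided, Benjamini-Hochberg adjustment over 12653 genes, threshold 0.05). Alternatives were RLE, upper-quartile and unscaled totals, DESeq2 1.42.0, limma-voom (limma 3.58.1), other filters and limits, FPKM, the mouse number as a block, and leaving out each mouse. CPM uses the TMM-scaled library size of the tested genes. Log2 fold changes are bcat(ex3)osb over WT, and SEs come from the F statistic. The procedure was tested on simulated data. Ratios of counts have exact binomial (Clopper-Pearson) 95% intervals, and a gene with no count in a group was bounded by 3 counts per library.

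The genes, lists and motifs were chosen with earlier results of these data known. Named were the 10 genes, the 10 nearest others in ratio and 5 of the reverse pattern, the nearest tested neighbours, and up to 4 tested genes per list with the smallest unadjusted p, without unnamed or sex-linked genes. Other list genes whose counts are given, such as Bglap, Col1a1, Ibsp, Sp7, Lepr, Fxyd4 and Gli1, were chosen after their values were seen. Nothing in the labels says more of the mice than that they are separate littermates, so p-values measure the spread between these 6 mice. Precision was limited by depth, since most of the 10 genes had under 200 counts over the WT mice.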

Additional observations from a re-analysis of the deposited data

How the results depend on the processing

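The numbers of genes called by edgeR stayed at 0 in both directions with RLE or upper-quartile scaling, with limma-voom and with either other low count filter. DESeq2 called 68 lower and 101 higher, and leaving out each mouse gave 0 to 13 lower and 0 to 4 higher; the cause was not tested. Mice with the same number correlated in their deviations from the group means at 0.110, 0.344 and 0.0567, so the numbers were not taken as pairs; with the replicate block, 0 genes were called lower and 5 higher.

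The count of 28 genes near absent in bcat(ex3)osb mice was 86 at a ratio of at most 0.20, 64 with at least 5 counts and 10 with at least 20 counts, limits that by construction admit more or fewer genes. Of the 10 genes, 10 were included at 0.20, and 3 at 20 counts. Leaving out each mouse gave 27 to 85. Without a WT mouse, fewer libraries had to hold at least 10 counts, so by construction more genes could enter. The cause of the other changes was not tested. The count of 12 genes near absent in WT mice was 2 at a ratio of at most 0.05, 52 at 0.20 and 19 with at least 5 counts. It was 13 to 30 without each mouse, where leaving out a bcat(ex3)osb mouse loosened the count limit in the same way. RLE scaling, library totals and FPKM gave 28, 29 and 29 genes near absent in bcat(ex3)osb mice and 12, 11 and 11 near absent in WT mice.

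The median ratio of 0.152 over the 10 genes was 0.143 with library totals and 0.143 on FPKM, 0.0538 with a floor of 1 count per library, and 0.126 to 0.163 without each mouse. Depth limits what can be said of Col19a1, Cacna2d1, Prlr and Gli3: 0 counts over 3 libraries put the upper 95% counting limit of the ratio of bcat(ex3)osb to WT counts at 0.0624 for Col19a1, 0.0726 for Cacna2d1 and 0.0906 for Prlr and Gli3, and ratios under these limits cannot be told from the absence of reads.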
